A study of Mus musculus with 8 samples.

Results

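The genes of the T cell receptor complex and of regulatory T cells were followed in RNA sequencing of mouse dorsal skin. The group was set by name and held 10 genes of the 22740 listed: the CD3 chains Cd3d, Cd3e and Cd3g, the coreceptors Cd4 and Cd8a, the transcription factor Foxp3, the interleukin-2 receptor chain Il2ra, the CD28-family receptors Ctla4 and Icos, and the tumour necrosis factor receptor family member Tnfrsf4.

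Each of the 8 libraries came from 1 female BALB/c mouse, with 2 mice in each of 4 groups. All 4 groups ate a low-fibre diet. Baseline CTL mice drank water and received no allergen, and baseline butyrate mice drank 400 mM sodium butyrate without allergen. Lesional CTL and lesional butyrate mice drank the same fluids and also received HDM, an extract of house dust mites. On shaved skin under a dressing, 15 µg was applied 4 times over 2 weeks, starting at an age of 6 to 8 weeks. The same age was taken for the baseline mice, whose age at collection is not stated separately. Whether the sequenced baseline skin had been shaved or dressed is not stated either. Butyrate had begun 2 weeks before the allergen. Repeated application of this allergen gives an inflammation of the skin that resembles atopic dermatitis. The labels name no transgene or deleted gene, and whole skin was sequenced, so that fewer T cells and less RNA per T cell cannot be told apart. The sample titles of the baseline and the lesional mice begin with different numbers, whose meaning the labels do not give. HDM exposure therefore cannot be told apart from whatever else may have set these mice apart.

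T cells recognise antigen through the T cell receptor, whose signal is carried into the cell by the CD3 chains. CD4 and CD8 bind the MHC molecule that presents the antigen and separate helper and regulatory from cytotoxic T cells, and Foxp3 is the transcription factor that defines regulatory T cells. Regulatory T cells are abundant in skin, where they hold back inflammation, and they carry much of the high-affinity interleukin-2 receptor, CTLA-4, ICOS and OX40 (encoded by Tnfrsf4) on their surface, although activated helper T cells and, for Icos and Il2ra, group 2 innate lymphoid cells (ILC2) carry them too.

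Of the 10 genes, 4 rose in lesional CTL skin over baseline CTL skin in the fit of all 8 mice, namely Icos, Foxp3, Il2ra and Cd4. They no longer passed the test in most fits that left out 1 mouse. No gene of the group passed the test for an effect of butyrate. Levels are given as CPM (counts scaled to a common library size, after correction by the trimmed mean of M-values, TMM) and differences as log2 fold changes with their standard error from edgeR's quasi-likelihood test on all 8 mice. A gene was called when its false discovery rate (FDR, the p-value adjusted over the 15163 genes tested) was below 0.1 and its fold change above 2.

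Library totals were between 18004136 and 21085544 counts, and the floor of 3 counts lay between 0.138 and 0.169 CPM. All 10 genes passed the filter on low counts. Cd8a passed it through the lesional libraries alone, with 0 of 4 baseline libraries above its limit of 0.509 CPM, and Cd3d and Foxp3 were above it in 3 of the 4 baseline libraries. Baseline butyrate replicate 3 stood apart from the other libraries. In it the summed level of hair shaft and inner root sheath genes was 11225 CPM, against 10.1 to 20.0 CPM in the other 7 mice. Of the 14198 genes with a mean of at least 1 CPM, 3364 differed more than 2-fold between it and the other baseline butyrate mouse, whereas 90 to 472 did so between the replicates of the lesional groups and 146 between those of baseline CTL. Each of the 10 genes had its lowest baseline level in that mouse. For 2 of them baseline CTL replicate 1 was close, with 3 counts of Cd8a in each (0.143 against 0.167 CPM). Icos had 22 against 19 counts (1.05 against 1.06 CPM).

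**Figure D1:**
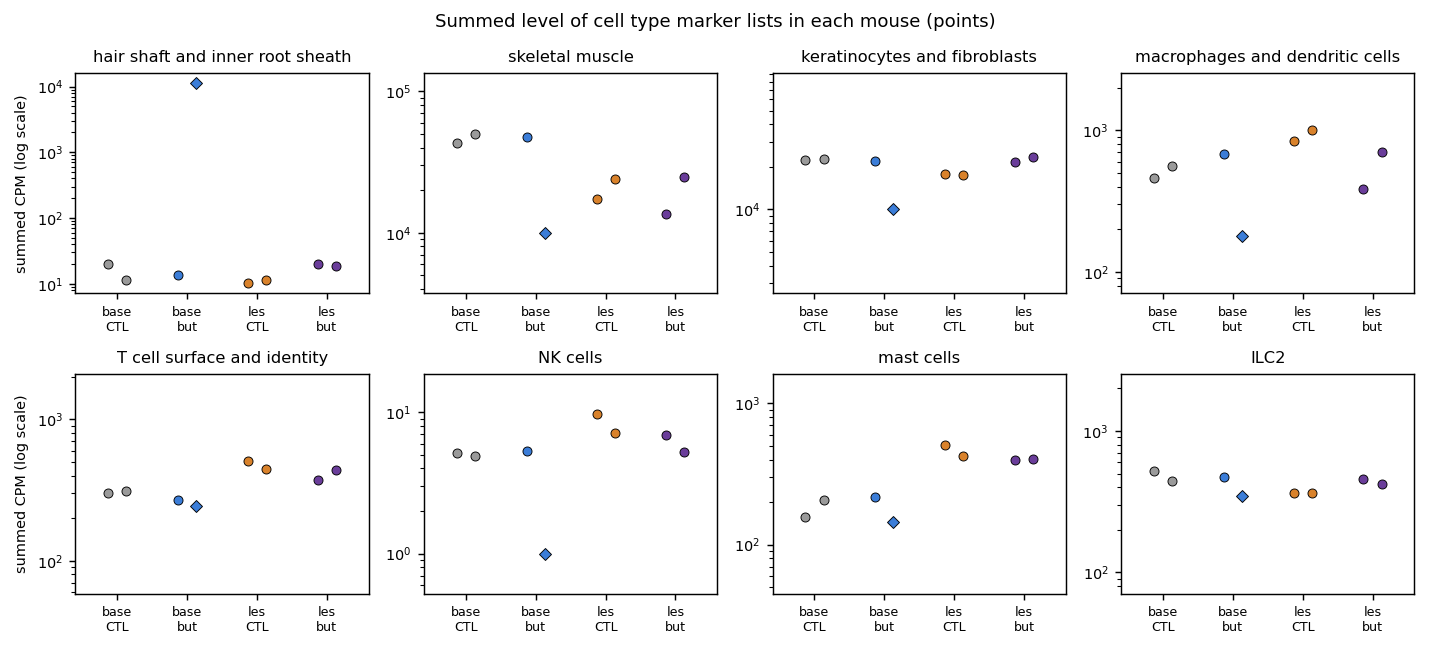
Summed CPM of 8 lists of cell type marker genes (log scale) in each mouse (points), by group, with baseline butyrate replicate 3 drawn as a diamond. That mouse had 11225 CPM of hair shaft and root sheath genes and 1.00 CPM of NK cell genes, whereas the other 7 mice had at most 20.0 and at least 4.88 CPM.

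The genes lie on 6 chromosomes of the GRCm38 build. The CD3 genes adjoin each other on chromosome 9, with 1354 bases between Cd3g (44969572 to 44980431) and Cd3d (44981786 to 44987339) and 11400 bases between Cd3d and Cd3e (44998740 to 45009627). Ctla4 (60887000 to 60915832) and Icos (60977927 to 61000320) are neighbours on chromosome 1, 62094 bases apart. Foxp3 lies at 7573644 to 7595245 of chromosome X, and Il2ra at 11642807 to 11693193 of chromosome 2. The annotation places other transcripts within the spans of Foxp3 (Flicr on the same strand), Cd3e and Il2ra, so that reads of these stretches may not be assigned to the named gene with certainty.

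RefSeq gives the bases before the transcription start (build GRCm38.p6) for 8 of the 10 genes, Cd4 and Icos having no entry. Those of Cd3e, which marks all T cells, and of Foxp3 and Il2ra, which moved closely together below, are printed 5′ to 3′ up to the base before the start. Capitals mark matches on either strand to the core letters AGGAAG of an ETS-family site or TTCNNNGAA of a STAT site, families to which the T cell factor ETS1 and the interleukin-2-activated STAT5 belong.
Cd3e (chr9:45009612-45009861, - strand): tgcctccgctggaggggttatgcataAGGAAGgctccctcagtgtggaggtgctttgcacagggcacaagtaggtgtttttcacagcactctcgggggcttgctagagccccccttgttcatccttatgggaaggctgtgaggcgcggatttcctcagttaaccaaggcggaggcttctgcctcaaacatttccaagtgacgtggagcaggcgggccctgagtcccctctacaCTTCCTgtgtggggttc
Foxp3 (chrX:7580233-7580482, + strand): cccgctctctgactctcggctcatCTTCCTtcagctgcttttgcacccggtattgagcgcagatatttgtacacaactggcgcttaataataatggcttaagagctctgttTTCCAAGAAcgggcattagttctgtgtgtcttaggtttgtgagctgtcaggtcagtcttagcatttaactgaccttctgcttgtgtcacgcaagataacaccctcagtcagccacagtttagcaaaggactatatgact
Il2ra (chr2:11642542-11642791, + strand): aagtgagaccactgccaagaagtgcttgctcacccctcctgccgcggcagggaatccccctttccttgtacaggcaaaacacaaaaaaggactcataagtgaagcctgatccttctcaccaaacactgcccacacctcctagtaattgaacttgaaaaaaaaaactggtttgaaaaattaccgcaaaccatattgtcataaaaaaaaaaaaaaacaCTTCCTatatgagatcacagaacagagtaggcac

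Among these 8 genes, 5 held the ETS letters in the 250 bases (29.5% of 32851 promoters did), 2 held the STAT letters (7.02%) and 0 held the letters TGTGGT of a RUNX site (14.0%). The printed Foxp3 stretch, which precedes 1 of its 2 listed starts, held a match to both the ETS and the STAT letters. The stretch before its other start held no match to the ETS, STAT or RUNX letters. Those of Cd3e and Il2ra held ETS letters only. The 8 genes had 9 stretches, whereas the percentages count each promoter once. A match describes these letters and is no evidence of binding.

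The CD3 chains are made by nearly all T cells. Cd3e encodes the epsilon chain, needed for assembly of the receptor. It was at 5.67 and 4.66 CPM in the baseline CTL mice, 6.54 and 0.762 CPM in the baseline butyrate mice (replicates 1 and 3), 11.3 and 8.26 CPM in lesional CTL skin and 10.1 and 7.16 CPM in lesional skin under butyrate. All 4 lesional mice were above all 4 baseline mice, and the low baseline butyrate mouse (16 counts) was 7.38-fold below the mean of the other 3 baseline mice. The lesional groups overlapped.

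Cd3g, the gamma chain, was at 8.50 and 6.88 CPM in baseline CTL, 10.4 and 2.48 CPM in baseline butyrate, 19.7 and 11.7 CPM in lesional CTL mice, and 12.9 and 7.96 CPM in those lesional mice given butyrate. The lower lesional butyrate mouse lay within the baseline range, and the other lesional mice lay above it. Cd3d, the delta chain, was at 1.44 and 1.50 CPM, 1.80 and 0.333 CPM, 6.14 and 2.31 CPM, and 3.82 and 2.65 CPM in the groups in the same order. Lesional CTL replicate 4 was the highest mouse for each CD3 chain.

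None of the CD3 chains passed the test between lesional CTL and baseline CTL skin. The log2 fold change was 1.51 (SE 0.78, FDR 0.332, edgeR) for Cd3d, 1.03 (SE 0.65, FDR 0.410) for Cd3g and 0.92 (SE 0.82, FDR 0.544) for Cd3e, with 2 mice per group. In butyrate-treated mice the same change was 1.61 (SE 0.80, FDR 0.446) for Cd3d, 0.71 (SE 0.66, FDR 0.704) for Cd3g and 1.25 (SE 0.83, FDR 0.581) for Cd3e. Without baseline butyrate replicate 3 these last values became 0.84, 0.011 and 0.40.

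The coreceptors had low baseline levels. Cd4 was at 1.78 CPM in each baseline CTL mouse and at 2.03 and 0.857 CPM in the baseline butyrate mice. With HDM it was at 16.4 and 7.06 CPM under CTL and at 5.54 and 8.05 CPM under butyrate. Every lesional mouse was above every baseline mouse, the highest again being lesional CTL replicate 4, while the butyrate and CTL mice overlapped in lesional skin. Cd4 rose 6.57-fold in lesional CTL skin (log2 fold change 2.72, SE 0.57, FDR 0.0791, edgeR). It lost the call with limma-voom, at an FDR of 0.103. Leaving out lesional CTL replicate 4 or 5 moved the log2 fold change to 1.99 or 3.20.

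Cd8a, the alpha chain of the CD8 coreceptor, was near the floor in baseline skin, with 3 and 5 counts in the baseline CTL mice and 5 and 3 counts in the baseline butyrate mice. Lesional libraries held 92 and 25 counts for CTL and 56 and 31 counts for butyrate, all above the baseline libraries. Summed over mice and scaled by library size, Cd8a was 13.0-fold higher in lesional CTL than in baseline CTL skin (95% interval from counting error alone 6.40 to 30.9), and 9.92-fold higher in lesional butyrate than in baseline butyrate skin (4.82 to 23.7). In the test across mice the log2 fold change in CTL skin was 3.73 (SE 0.89) and its FDR of 0.104 missed the threshold. This value also turned on the lesional CTL mice, being 2.35 without replicate 4 and 4.43 without replicate 5. Cd8b1, which encodes the partner chain of CD8 alpha, had 0 counts in both baseline CTL mice and 22 and 80 counts in the lesional CTL mice.

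Foxp3 was at 0.778 and 0.666 CPM in baseline CTL (14 and 12 counts), 1.18 and 0.381 CPM in baseline butyrate (21 and 8 counts), 8.54 and 5.68 CPM in lesional CTL (160 and 123 counts) and, under butyrate, 5.30 and 3.58 CPM in lesional mice (111 and 77 counts). The lesional mice did not overlap with the baseline mice, and both lesional butyrate mice were below both lesional CTL mice. Foxp3 rose 9.76-fold in lesional CTL skin (log2 fold change 3.29, SE 0.57, FDR 0.0522, edgeR). In butyrate-treated mice the change was 2.52 (SE 0.56, FDR 0.194), which did not pass.

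Il2ra, the alpha chain that gives the interleukin-2 receptor its high affinity, was at 1.67 and 1.78 CPM in baseline CTL and 2.82 and 1.10 CPM in baseline butyrate mice. With HDM it was at 11.4 and 8.12 CPM under CTL and 9.21 and 7.16 CPM under butyrate, all of them above the baseline range and overlapping between the fluids. Il2ra rose 5.64-fold in lesional CTL skin (log2 fold change 2.50, SE 0.47, FDR 0.0645, edgeR), and its change in butyrate-treated mice was 2.07 (SE 0.47, FDR 0.198).

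Icos, a costimulatory receptor of the CD28 family, had the largest fitted fold change of the 10 genes between baseline and lesional CTL skin. It was at 1.06 and 1.50 CPM in baseline CTL, 2.99 and 1.05 CPM in baseline butyrate, 33.3 and 17.7 CPM in lesional CTL, and 19.9 and 11.5 CPM in the butyrate-treated lesional mice. The lowest lesional mouse was above the highest baseline mouse, and the lesional groups overlapped. Icos rose 19.8-fold in lesional CTL skin (log2 fold change 4.31, SE 0.64, FDR 0.0397, edgeR), and was the only gene of the group with an FDR below 0.05. In butyrate-treated mice its change was 2.97 (SE 0.60, FDR 0.181).

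Ctla4, the inhibitory receptor of the same family, was at 2.45 and 2.61 CPM in baseline CTL and 3.50 and 1.38 CPM in baseline butyrate mice. With HDM it was at 9.66 and 6.74 CPM under CTL and at 4.49 and 3.58 CPM under butyrate. The lesional CTL mice were the 2 highest of all, and the lesional butyrate mice lay between them and the baseline mice, the lower being just above the highest baseline mouse. The log2 fold change was 1.69 (SE 0.46, FDR 0.136, edgeR) in CTL skin and 0.73 (SE 0.46, FDR 0.557) in butyrate-treated skin, and neither passed.

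Tnfrsf4 encodes OX40, a costimulatory receptor of activated T cells. Its level was 14.8 and 12.2 CPM in baseline CTL, 11.7 and 6.72 CPM in baseline butyrate, 17.0 and 15.2 CPM in lesional CTL, and 20.9 and 15.1 CPM in the butyrate-treated lesional mice. The lesional mice were all above the baseline mice. The log2 fold change in CTL skin, the smallest of the 10 genes, was 0.26 (SE 0.31, FDR 0.663, edgeR). In butyrate-treated skin it was 0.97 (SE 0.32, FDR 0.302).

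**Figure D2:**
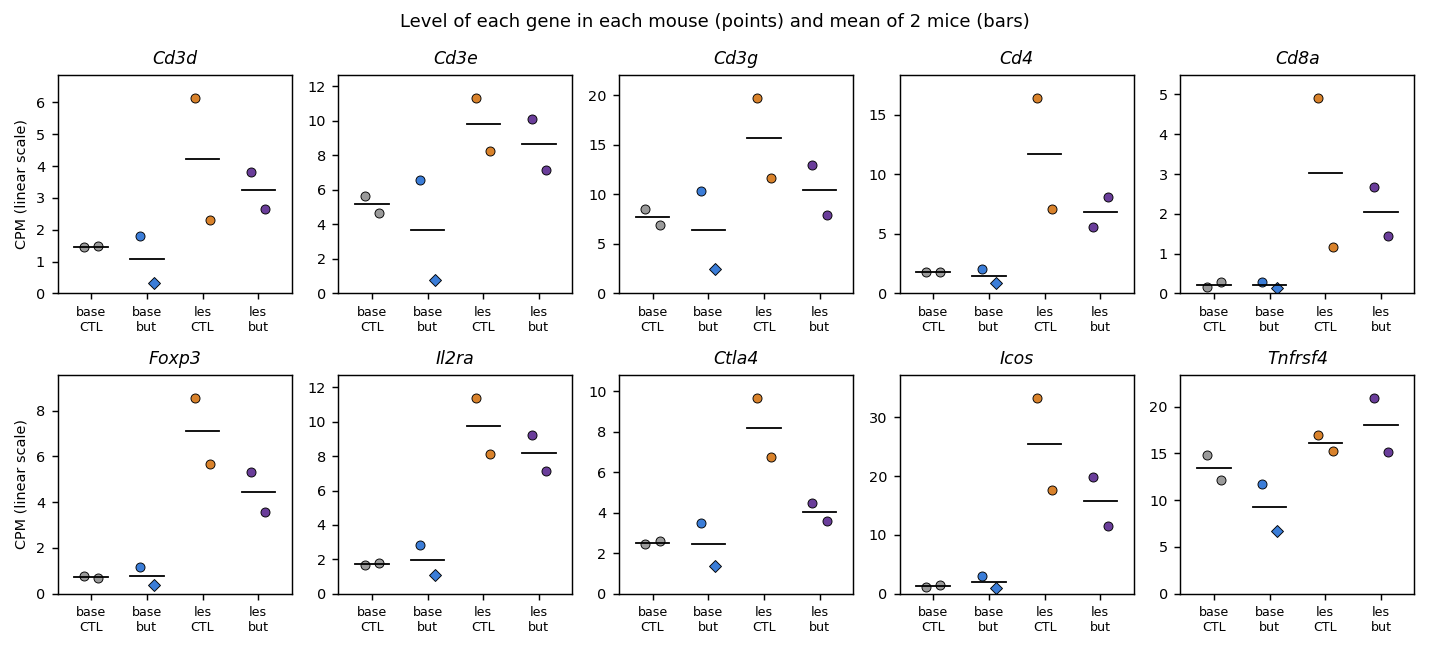
Level in CPM (linear scale from 0, a separate scale per gene) of the 10 genes in each mouse (points) with the mean of 2 mice (bars), by group (base, baseline; les, lesional; but, butyrate), baseline butyrate replicate 3 being a diamond. Icos went from at most 2.99 CPM in baseline mice to at least 11.5 CPM in lesional mice, while Tnfrsf4 covered 6.72 to 14.8 CPM in baseline and 15.1 to 20.9 CPM in lesional mice.

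Counted together for lesional against baseline CTL skin, 4 of the 10 genes were called higher, while 2.37% of all genes tested were. The 2 lesional mice were above the 2 baseline mice for 10 of 10 genes, where 36.7% of all genes had groups that did not overlap in that direction. Cd8a, which passed the filter through the lesional libraries alone, is among these 10. The median log2 fold change was 2.10, against -0.015 over all genes, and 6 genes had an unadjusted p below 0.05. With 2 mice a group an exact permutation test cannot go below p = 0.333, so that the calls rest on the spread shared across groups and genes. Whether these genes were called depended on which mice were in the fit, and so did the share of all genes called. All calls among the 10 genes were lost when any baseline CTL, lesional CTL or lesional butyrate mouse was left out, and the share of all genes called fell too. With each mouse left out in turn, the log2 fold change ran from 3.79 to 4.70 for Icos and 2.97 to 3.55 for Foxp3. It ran from 2.24 to 2.72 for Il2ra and from 1.99 to 3.20 for Cd4. The count of called genes was 6 with DESeq2, which called 4.39% of all genes higher, and 3 with limma-voom, which called 2.57%.

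In butyrate-treated mice, 0 of the 10 genes were called higher in lesional than in baseline skin, 0.277% of all genes being called so, and 6 genes had an unadjusted p below 0.05. Lesional mice were above baseline mice for 9 of the 10 genes, Cd3g being the exception, where 15.7% of all genes were arranged that way. The median log2 fold change was 1.84, against -0.045 over all genes. DESeq2 called 5 of the 10 (2.55% of all genes higher) and limma-voom 0 (0.224%). Leaving out baseline butyrate replicate 3, the mouse that stood apart, gave 3 called genes (2.50% of all genes). Leaving out its partner, so that this mouse alone stood for baseline butyrate skin, gave 10 (11.1% of all genes). The fitted values moved as much: without replicate 3 and without replicate 1 in turn, they were 0.21 and 1.55 for Ctla4, 1.90 and 3.53 for Foxp3, 2.39 and 3.90 for Icos, 1.54 and 2.90 for Il2ra, 1.74 and 2.98 for Cd4, and 0.62 and 1.43 for Tnfrsf4. The part of the hair follicle genes in these values was not tested.

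No effect of butyrate in lesional skin passed the test in any of the 10 genes. All 10 genes had an FDR of 1.00 (edgeR), 0 were called (0% of all genes were, in either direction) and 0 had an unadjusted p below 0.05, as 734 of all genes did. DESeq2 and limma-voom also called 0 of the 10, and so did edgeR on the lesional mice alone. The share of 0% of all genes holds for the main fit. Its spread was estimated from all mice, among them the baseline butyrate mouse that stood apart. DESeq2 called 0.152% of all genes higher and 0.666% lower, and limma-voom 0% and 0.0066%. The fit of the lesional mice alone called 0.0201% higher and 0.148% lower. The fitted values of the main fit were below 0 for 9 of the 10 genes, with a median of -0.57 against -0.0053 over all genes. Ctla4 and Foxp3 were the 2 genes whose lesional butyrate mice were both below both lesional CTL mice, an arrangement that 22.5% of all genes had, so that 2 of 10 is close to the background.

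The largest of these differences was that of Ctla4, with a log2 fold change of -1.02 (SE 0.45, FDR 1.00, edgeR). Cd4 had -0.79 (SE 0.52), Icos -0.70 (SE 0.54), Foxp3 -0.68 (SE 0.50), Cd3g -0.59 (SE 0.65) and Cd8a -0.55 (SE 0.71). Cd3d, Il2ra and Cd3e were nearer to 0, at -0.38 (SE 0.75), -0.25 (SE 0.43) and -0.18 (SE 0.80), and Tnfrsf4 was at 0.16 (SE 0.31). Lesional CTL replicate 4 carried much of the difference for several genes. Without it the values were 0.49 for Cd3d, 0.83 for Cd8a, 0.065 for Cd3e, 0.011 for Il2ra and -0.056 for Cd4. They also moved toward 0 for Cd3g (-0.16), Icos (-0.17), Foxp3 (-0.35) and Ctla4 (-0.74).

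**Figure D3:**
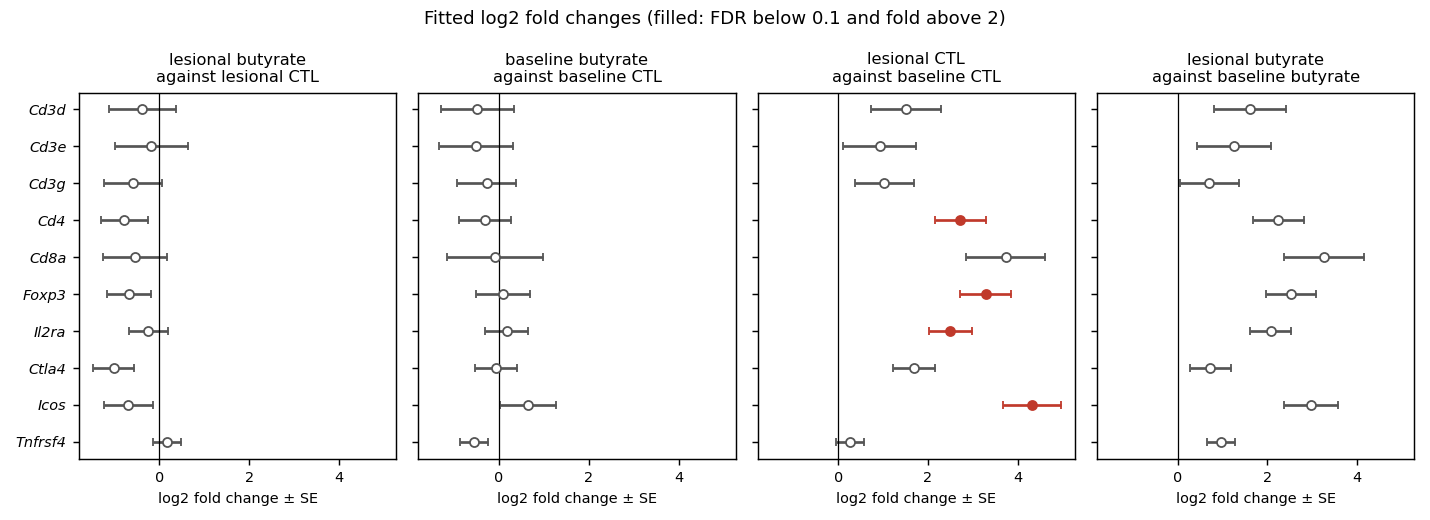
Fitted log2 fold change with its standard error for each of the 10 genes (rows) in 4 comparisons (panels), filled where the gene was called at an FDR below 0.1 and a fold above 2. Icos, Foxp3, Il2ra and Cd4 are filled for lesional against baseline CTL skin, between 2.50 and 4.31, and no gene is filled in the other panels.

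In baseline skin no difference between butyrate and CTL mice passed the test in any of the 10 genes, with FDRs from 0.714 to 0.975 (edgeR), and 0% of all genes were called. DESeq2 also called 0 of the 10, with 0.336% of all genes called higher and 0.0462% lower. Limma-voom called 0 of the 10 and 0% of all genes. The fitted values of edgeR were below 0 for 7 genes and 0 genes had an unadjusted p below 0.05. Tnfrsf4 alone had both butyrate mice below both CTL mice (log2 fold change -0.55, SE 0.32), an arrangement of 15.9% of all genes. The other 9 genes had the baseline CTL mice overlapping with, or enclosed by, the wide range of the butyrate pair. Icos had the largest positive value, 0.64 (SE 0.62), which was -0.29 or 1.22 depending on which butyrate mouse was left out. The baseline comparison therefore turned on the mouse that stood apart, and leaving out its partner made 4 genes called lower, as 14.7% of all genes then were.

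Whether butyrate acted differently on lesional and on baseline skin was tested as an interaction, and 0 of the 10 genes passed (0% of all genes). The FDRs were from 0.840 to 0.981 (edgeR), and 0 of the 10 had an unadjusted p below 0.05. DESeq2 called 0 of the 10, with 0.0528% of all genes called higher and 0.191% lower. Limma-voom called 0 of the 10 and 0% of all genes. The interaction was -1.34 (SE 0.83) for Icos, -0.96 (SE 0.65) for Ctla4 and -0.77 (SE 0.78) for Foxp3, and 0.71 (SE 0.44) for Tnfrsf4. Leaving out baseline butyrate replicate 3 or 1 gave -1.91 or -0.40 for Icos and -1.49 or -0.15 for Ctla4. The comparisons share their groups of mice, so these values are not independent of those above.

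Levels of different genes were compared as CPM per kilobase of annotated exons. Tnfrsf4 had the highest level in each group, with 9.89 ± 1.39 in baseline CTL, 6.76 ± 2.59 in baseline butyrate, 11.8 ± 0.931 in lesional CTL and 13.2 ± 3.00 in lesional butyrate skin (SD, n = 2), and did not overlap with the next gene in any of them. Cd8a was the lowest in each group, from 0.0584 ± 0.0270 in baseline butyrate to 0.834 ± 0.730 in lesional CTL skin, where it overlapped with Foxp3. Icos was the seventh of the 10 in baseline CTL skin, at 0.372 ± 0.0913, and the second in lesional CTL skin, at 7.42 ± 3.21, where it overlapped with Cd3g. In baseline CTL skin only Icos and Il2ra overlapped among neighbours in this order, whereas in lesional CTL skin every neighbouring pair below Tnfrsf4 did.

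Ratios between the genes within a library do not depend on library size. Foxp3 per Cd3e, both per kilobase, was 0.122 and 0.127 in the baseline CTL mice and 0.161 in baseline butyrate replicate 1. It was 0.673 and 0.613 in lesional CTL and 0.467 and 0.446 in lesional butyrate mice, so that the lesional groups did not overlap. Foxp3 per Cd4, in contrast, was 0.459 and 0.708 in lesional CTL mice, enclosed by 0.843 and 0.392 in lesional mice given butyrate. For Foxp3 per Cd3e, baseline butyrate replicate 3 had 0.446 as well, from 8 counts of Foxp3 and 16 of Cd3e. Ctla4 per Cd3e was likewise higher in lesional CTL mice, at 1.50 and 1.43, than in lesional butyrate mice, at 0.776 and 0.876. The latter lay in the range of the baseline CTL mice (0.755 and 0.980). Other ratios separated the lesional groups too. Cd3g per Cd3e, chains of the same receptor, was 2.18 and 1.76 in lesional CTL and 1.60 and 1.39 in lesional butyrate mice. Icos per Cd3e and Ctla4 per Foxp3 were also lower in both lesional butyrate mice, and Il2ra per Foxp3 was higher. Tnfrsf4 per Cd3e was higher there as well, at 6.18 and 6.31 against 4.50 and 5.51 in lesional CTL mice.

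Il2ra per Cd3e, by contrast, was close in the lesional mice, between 0.650 and 0.718, and between 0.210 and 0.308 in baseline mice other than the mouse that stood apart. Icos per Cd3e was 0.222 and 0.382 in baseline CTL, 0.543 and 1.64 in baseline butyrate and 1.92 to 3.50 in lesional mice, the baseline value nearest to the lesional range being that of the mouse that stood apart. Ctla4 per Foxp3 moved the other way: it was 5.80 to 7.69 in the 4 baseline mice and 1.66 to 2.33 in the 4 lesional mice. Il2ra per Foxp3 was also lower in lesional mice, at 1.07 to 1.60 against 1.72 to 2.30, while Icos per Foxp3 was higher, at 4.16 to 5.20 against 1.81 to 3.67. Cd4 per Cd8a was 5.41 to 9.62 in baseline mice, with at most 5 counts of Cd8a in each, and 1.87 to 5.52 in lesional mice. These ratios were not tested.

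**Figure D4:**
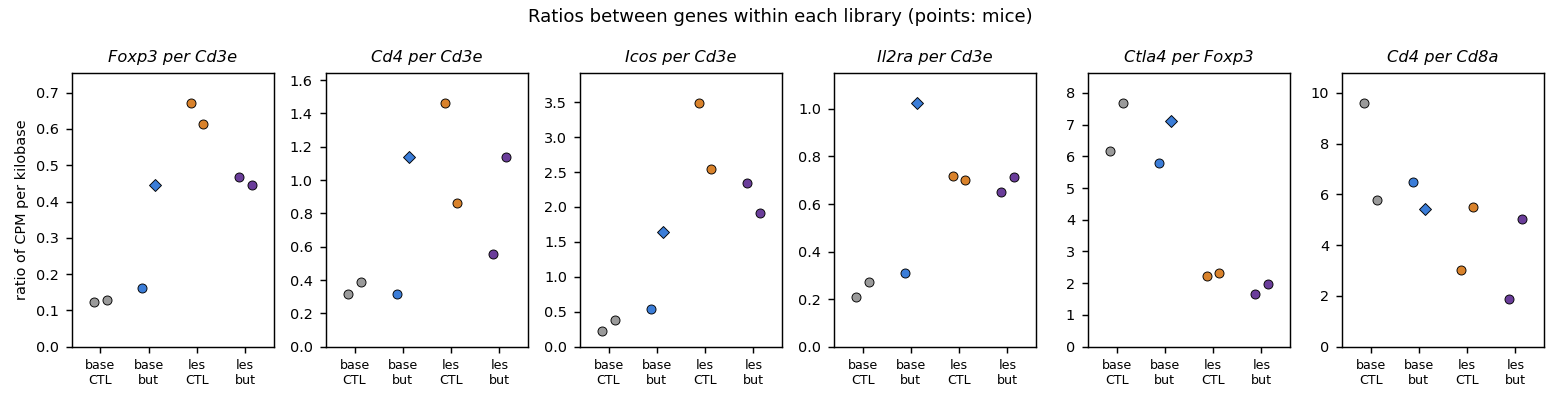
Ratio of CPM per kilobase between the genes named above each panel in each mouse (points; linear scale from 0), by group, baseline butyrate replicate 3 being a diamond. Ctla4 per Foxp3 was 5.80 to 7.69 in baseline and 1.66 to 2.33 in lesional mice, and Foxp3 per Cd3e was 0.613 and 0.673 in lesional CTL and 0.446 and 0.467 in lesional butyrate mice.

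The levels of the 10 genes went up and down together over the 8 libraries to differing degrees, as described by Pearson's r of log2(CPM + 0.5), which the libraries' depth and the contrast of lesional with baseline skin enter as well. Foxp3, Icos and Il2ra formed the 3 closest pairs among 45, each with an r of 0.992. The lowest was 0.691, between Cd3e and Cd8a, which was 0.927 without baseline butyrate replicate 3. Over the remaining 7 libraries the closest pair was Il2ra and Icos (0.997) and the lowest Ctla4 and Tnfrsf4 (0.479). Outside the group, the 5 genes most like Foxp3 among 14188 genes were Ikzf3 (0.995), Sprr2g, Sh2d2a, Gm5478 and Ankk1 (0.991). Ikzf3 encodes a lymphoid transcription factor and Sprr2g a cornified envelope protein of keratinocytes. The 5 most like Cd3e were Cd274 (0.995), Itgax (0.989), Ttc39a, H2-Aa and Sh3bp2, of which Cd274 encodes PD-L1, Itgax CD11c and H2-Aa an MHC class II chain. Without baseline butyrate replicate 3 the r of Cd3e with Cd274 was 0.974 and with Itgax 0.939, and that of Foxp3 with Ikzf3 was 0.995. For Tnfrsf4, added after its values were seen, the closest gene was Skint1 (0.993), which is expressed by keratinocytes and thymic epithelium.

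The genes of T cell receptor signalling lie downstream of the CD3 chains. Of 17 tested, 1 was called higher in lesional than in baseline CTL skin, namely Lck, the kinase bound to CD4 and CD8, from 3.50 ± 0.233 to 13.4 ± 6.59 CPM (SD, n = 2; log2 fold change 1.93, SE 0.38, FDR 0.0696, edgeR). The median of the list was 0.97 and 14 of 17 values were above 0. Among other T cell surface and identity genes 5 of 14 were called higher. Among them were Cd5, a negative regulator of receptor signalling (2.00, SE 0.34, FDR 0.0494), the chemokine receptor Ccr7 (2.00, SE 0.43, FDR 0.0804), and Cd6 (FDR 0.0445) and Cd8b1 (FDR 0.0781), which had at most 6 counts in any baseline CTL mouse.

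Of the regulatory T cell genes beyond the group, 2 of 14 were called higher in lesional CTL skin. Tnfrsf9, which encodes 4-1BB, went from 1.31 ± 0.0381 to 12.1 ± 2.57 CPM (log2 fold change 3.21, SE 0.31, FDR 0.0189, edgeR), and it was also called in butyrate-treated mice (3.13, SE 0.32, FDR 0.0424). Tigit, an inhibitory receptor, had 1 and 2 counts in the baseline CTL mice and 59 and 87 counts in the lesional CTL mice (FDR 0.0592). Nt5e, the ectoenzyme CD73, was lower (-0.90, SE 0.14, FDR 0.0412) by less than the 2-fold limit. Ikzf2, which encodes Helios and was set as a defining marker beside Foxp3, went the other way from Foxp3, with 65.3 ± 10.8 CPM in baseline CTL and 33.1 ± 1.23 CPM in lesional CTL skin. The median of the list was 1.20.

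Ligands and partners of the receptors were also counted. Of 10 ligands tested, 1 was called higher in lesional CTL skin, Pdcd1lg2 (PD-L2), with 1 and 5 counts in baseline CTL and 36 and 42 counts in lesional CTL mice (FDR 0.0734, edgeR), and the median was 0.66. The ligands that pair with single receptors of the group were named after their values were seen. Icosl, the ligand of ICOS, was at 23.2 ± 1.47 and 29.5 ± 2.47 CPM in baseline and lesional CTL skin. Tnfsf4, the ligand of OX40, had at most 10 counts in any library and Il2 had at most 10. Cd80, a ligand of CTLA-4, was at 1.33 ± 0.0774 and 3.65 ± 0.781 CPM (FDR 0.335).

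Of 9 interleukin-2 receptor partners and STAT5 targets, 1 was called higher, Socs1, a feedback inhibitor of cytokine signalling (1.51, SE 0.25, FDR 0.0450, edgeR), and the median was 0.28. Il2rb and Il2rg, which complete the receptor with Il2ra, had 1.26 (SE 0.50, FDR 0.242) and 1.25 (SE 0.51, FDR 0.248). Of 9 helper T cell genes, Il13 and Il5, the type 2 cytokines, were called higher from at most 2 counts in a baseline CTL mouse (FDR 0.0672 and 0.0913), with a median of -0.049 for the list. Of 9 activation and inhibitory receptors, Cd44 (1.25, SE 0.24, FDR 0.0643) and Pdcd1 (1 and 3 counts to 61 and 79 counts, FDR 0.0728) were called higher, with a median of 1.01. Of 8 cytotoxic granule genes 1 was, Gzmb (4.45, SE 0.52, FDR 0.0294), with a median of 0.31. Of the 19 list genes called higher, 6 were below the filter's limit in every baseline library (Cd6, Cd8b1, Pdcd1lg2, Il5, Il13 and Pdcd1), and so entered the test through the lesional libraries where they were high.

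No gene of any list was called between lesional butyrate and lesional CTL skin. Over all 148 list genes tested, markers of other cells included, 11 had an unadjusted p below 0.05 (edgeR), limma-voom called 0 and DESeq2 called 4. The fitted values were below 0 for 15 of 17 receptor signalling genes (median -0.50), 11 of 14 T cell surface genes (-0.47), 12 of 14 regulatory T cell genes (-0.28), 8 of 9 interleukin-2 receptor genes (-0.21), 7 of 10 ligands (-0.10) and 8 of 9 activation and inhibitory receptors (-0.33), beside a median of -0.0053 over all genes. They were below 0 for 4 of 9 helper T cell genes (0.049) and 4 of 8 cytotoxic granule genes (0.15). Values were below 0 for most genes of several lists of other cells too, with 7 of 9 macrophage and dendritic cell genes (-0.37), 4 of 4 NK cell genes (-0.45), 6 of 9 ILC2 genes (-0.34), 4 of 4 gamma-delta T cell genes (-0.45) and 5 of 6 mast cell genes (-0.26). Among T cell surface genes, Ccr7 had a log2 fold change of -1.10 (SE 0.41, FDR 0.961, edgeR).

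Markers of other cells were set beside these changes. ILC2, which share Icos and Il2ra with T cells, had 4 of 9 list genes called higher in lesional CTL skin, among them Il1rl1, the interleukin-33 receptor (2.98, SE 0.38, FDR 0.0322, edgeR), and Hs3st1 (1.61, SE 0.29, FDR 0.0549), and 1 called lower, Arg1 (-1.90, SE 0.21, FDR 0.0263). Il1rl1 was at 7.14 ± 0.976 CPM in baseline CTL, 56.4 ± 0.898 CPM in lesional CTL, and 20.4 ± 0.302 CPM in butyrate-treated lesional skin. Il13 and Il5 stand in this list too. The list's summed level, in which the widely expressed Rora and Gata3 weigh most, was 444 to 523 CPM in baseline CTL and 367 CPM in both lesional CTL mice. The part of ILC2 in the rise of Icos and Il2ra was not tested.

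For mast cells 2 of 6 genes were called higher, Cma1 (1.48, SE 0.31, FDR 0.0771, edgeR) and Tpsb2 (1.47, SE 0.27, FDR 0.0608), and the summed level was 157 to 207 CPM in baseline CTL and 421 to 507 CPM in lesional CTL mice. None of the 4 tested NK cell genes was called, with a summed level of 4.88 to 5.11 CPM against 7.15 to 9.77 CPM. The B cell marker Ms4a1 had at most 1 count in any mouse, and the list of B and plasma cell genes summed to at most 2.31 CPM. Of the lymph node stroma markers, Cr2 had 0 counts in all mice and Glycam1 at most 5 counts, whereas Ccl21a, a chemokine that lymphatic vessels make too, was at 26.4 ± 0.173 CPM in baseline CTL, 28.1 ± 3.80 CPM in lesional CTL, and 59.6 ± 5.24 CPM in butyrate-treated lesional skin (1.08, SE 0.41, FDR 0.969 between the lesional groups). Macrophage and dendritic cell genes summed to 463 to 560 CPM in baseline CTL and 842 to 1002 CPM in lesional CTL mice, with 0 of 9 called. Skeletal muscle genes summed to 43143 to 49975 CPM in baseline CTL and 17301 to 23869 CPM in lesional CTL mice, with 0 of 7 called. The part of these shifts in the levels of T cell genes was not tested. The genes of the gamma-delta T cell receptor itself were not analysed here, and of the 4 gamma-delta T cell genes tested 0 were called, with a median of 0.72.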

How the data were processed

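RNA of skin from the back of 8 female BALB/c mice was sequenced, in groups of 2 mice. The labels name the treatment as vehicle or SCFA (short-chain fatty acid) and the state as baseline or atopic dermatitis. That the fatty acid was butyrate, its dose and the HDM exposure were taken from the paper. The authors aligned the reads to GRCm38 with STAR (version 2.5.2 in the submitters' processing notes), used featureCounts for counting per gene, and deposited raw counts of protein-coding genes, which carry no normalization. The name of the deposited table gives reverse-stranded counting. Reads that fit overlapping genes may be lost in such counting, and genes of low abundance carry large counting error.

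All values were computed from these counts. Genes were filtered with filterByExpr (minimum count 10), scaled by TMM and tested with edgeR 4.0.16 in R 4.3.3 (quasi-likelihood, robust, a mean per group, all 8 mice in 1 model), with Benjamini-Hochberg adjustment over 15163 genes. The standard error is the log2 fold change divided by the square root of the F statistic. The labels do not say whether the mice shared cages or litters, so p-values measure the spread between these mice, with 4 residual degrees of freedom. Lengths were unions of annotated exons (GENCODE vM21, GRCm38). Counting intervals are exact 95% intervals and cover counting error only, the reads having no molecular identifiers.

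The test was repeated with DESeq2 (1.42.0) and limma-voom (limma 3.58.1), with other scalings, filters, prior counts and thresholds, on the compared mice alone, and leaving out each mouse in turn. The genes and lists were chosen with earlier results of these data known. All 10 genes are named, and from each list the 3 genes with the smallest p in each of lesional butyrate against lesional CTL and lesional CTL against baseline CTL skin could be, with any called gene. Some list genes that the rule names are not reported here.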

Additional observations from a re-analysis of the deposited data

How the results depend on the processing

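For lesional against baseline CTL skin, 4 genes were called. The count was 1 at an FDR below 0.05 and 8 when the lesional and baseline CTL mice alone were fitted, and it ran from 0 to 8 when 1 mouse was left out. For lesional against baseline butyrate skin it was 5 with DESeq2 in place of 0, and 0 to 10 with 1 mouse left out. For butyrate against CTL in lesional skin every alternative gave 0, among them DESeq2, which called 0.152% of all genes higher and 0.666% lower. With 1 mouse left out, the count rose above 0 in baseline skin and for the difference between the effects only without baseline butyrate replicate 1. The cause was not tested, but the fits of fewer mice change both the samples and the estimate of the spread. The fit of the lesional and baseline CTL mice alone called 6.49% of all genes higher, against 2.37% with all 8 mice. The highest counts above 0 with 1 mouse left out all came from fits without a baseline butyrate mouse. In those fits the share of all genes called rose too. With 1 mouse left in that group, no conclusion on the 10 genes was drawn from these counts. No fold change between lesional and baseline skin changed direction under any alternative.

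Limma-voom turned the baseline effect of butyrate to -0.13 for Foxp3 and -0.00070 for Il2ra, and the difference between effects to 0.072 for Cd3g. With 1 mouse left out, the log2 fold change of butyrate in lesional skin ran from -0.92 to 0.49 for Cd3d, -0.45 to 0.065 for Cd3e, -1.25 to 0.83 for Cd8a, -0.47 to 0.011 for Il2ra and -0.092 to 0.38 for Tnfrsf4. In baseline skin it ran from -2.13 to 0.29 for Cd3d, -2.75 to 0.34 for Cd3e, -1.64 to 0.43 for Cd3g, -1.05 to 0.19 for Cd4, -0.62 to 0.33 for Cd8a, -0.91 to 0.71 for Foxp3, -0.65 to 0.71 for Il2ra, -0.87 to 0.47 for Ctla4 and -0.29 to 1.22 for Icos. The difference between effects ran from -0.67 to 1.75 for Cd3d, -0.52 to 2.58 for Cd3e, -1.02 to 1.05 for Cd3g, -0.97 to 0.27 for Cd4, -1.17 to 0.91 for Cd8a, -1.38 to 0.24 for Foxp3 and -0.96 to 0.41 for Il2ra.

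No paired analysis was made, because each library came from a different mouse and the labels name no pairing. With 2 mice per group, differences in Cd8a and Foxp3 at baseline, at 3 to 21 counts per library, were limited by counting error as well as by the number of mice.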
